A study of Sus scrofa with 12 samples.

Results

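Some C/EBP-β binding sites of the pig endometrium lay close together along the chromosomes, and 316 such clusters are described here. A cluster was built in 3 steps. Peak summits of 6 chromatin immunoprecipitation (ChIP) libraries on the 18 autosomes and X were first joined into 1 region wherever they lay within 200 bp of each other, which gave 98994 regions. The 11519 regions with a summit in at least 4 of the 6 libraries were then kept as recurrent regions. Recurrent regions separated by gaps of at most 12.5 kb were finally stitched together, and a stitched group of 3 or more regions counted as a cluster. The 316 clusters held 1117 recurrent regions, which was 9.70% of all recurrent regions. The clusters were thus chosen by the presence of summits in the libraries and by spacing, so their numbers, sizes and density are a description and were not tested.

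The factor itself binds DNA as a dimer through its leucine zipper and can pair with other zipper proteins. It is known for roles in acute-phase and cytokine responses and in cell differentiation, and in the uterus it takes part in the response of the endometrium to the implanting embryo. Regulatory elements of 1 gene often lie in groups, and long stretches rich in bound sites have been described as stretch or super-enhancers in other tissues. Neither name is used for the clusters here, because the deposited lists hold single summits with a score and no signal along the chromosome.

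The tissue was endometrium of pregnant pigs, and the libraries comprised 3 of gestation day 12 and 3 of gestation day 15, all made with the C/EBP-beta antibody ab32358 of Abcam. No genotype, breed or treatment is given in the labels. Nothing in them ties the replicates to separate animals, so every p-value below describes the spread between these libraries alone, and that spread can be technical. Whole endometrium holds luminal and glandular epithelium, stroma, vessels and leukocytes, and a summit list cannot tell which of these cells a site was bound in. Peak lists hold no expression values either, so the tissue label was not checked against marker genes. The 6 input samples were not analysed here, and no background lists of the same kind were used.

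The lists differed widely in length. Day 12 replicates 1, 2 and 3 held 6556, 33274 and 57694 summits on these chromosomes, and day 15 replicates 1, 2 and 3 held 70105, 16519 and 11954. Read depth is unknown, since the files give no counts. The peak names fell into 2 kinds, here called sets. Set A, named with a directory path, held day 12 replicate 1 and day 15 replicates 2 and 3. Set B, named without one, held day 12 replicates 2 and 3 and day 15 replicate 1. All 3 lists of set A were shorter than all 3 of set B. Day 15 replicates 2 and 3 carried the same sample code in their peak names, and the names of day 15 replicate 3 and the sample part of those of day 12 replicate 1 did not name the protein. Inside the clusters day 15 replicates 2 and 3 shared 4 summit positions to the base, where they had a summit in 970 and 728 regions. Other pairs of libraries were not counted. Each measure compared between days over the clusters as a whole is therefore also given within the sets. Counts of clusters or regions that separate the days were not made within the sets. The main counts are also given without single libraries.

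Most clusters were small. Of the stitched groups, 8170 held a single recurrent region, 1116 held a pair, 211 held 3 regions, 70 held 4, 21 held 5 and 14 held more. The largest held 11 regions. A cluster spanned 1.37 to 69.8 kb with a median of 13.7 kb, and all clusters together covered 4728 kb. The gap between neighbouring regions of a cluster had a median of 5416 bp, against 75698 bp between neighbouring recurrent regions of the whole genome. The density had a median of 2.39 regions per 10 kb and ranged from 1.29 to 21.9.

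**Figure D1:**
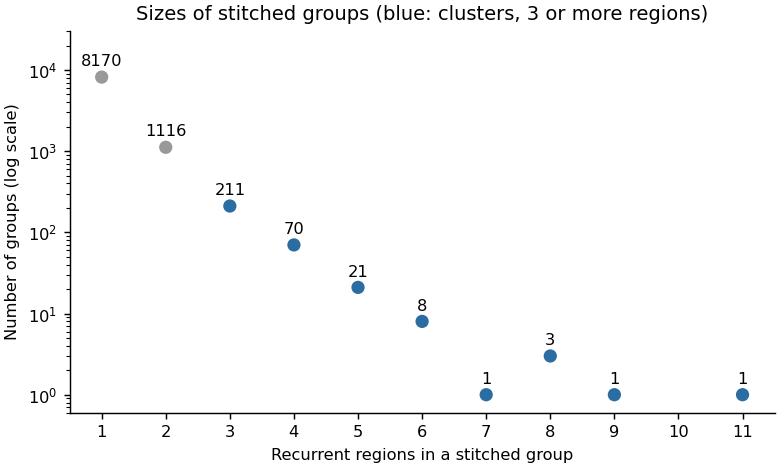
Number of stitched groups (vertical log axis) by the number of recurrent regions they hold (horizontal axis), with the count printed over each point. Groups of 1 region (8170) and 2 regions (1116) are grey, and the clusters of 3 to 11 regions are blue.

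Many clusters sat near the limits of the rule. The widest gap that was still stitched measured 12498 bp and the narrowest that was not measured 12529 bp. In 98 clusters the largest gap exceeded 10 kb, and 528 of the 1117 cluster regions had a summit in exactly 4 libraries. The spans of the clusters also held 158 regions with exactly 3 libraries, which fell just short. In 28 clusters every region had exactly 4 libraries, whereas 200 clusters held at least 1 region found in all 6 libraries. Between the recurrent regions of a cluster lay a median of 2 further regions with fewer than 4 libraries, or 1.81 per 10 kb against 0.870 per 10 kb within the pairs. The upper quartiles were close, at 2.76 and 2.65 per 10 kb. Pairs spanned a median of only 5.26 kb, and their density rests on 1082 of the 1116.

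Regions inside clusters recurred about as often as single and paired recurrent regions. A summit in all 6 libraries was found for 279 of the 1117 cluster regions (95% Clopper-Pearson interval 22.5 to 27.6%), against 23.3% (22.5 to 24.1%) of the recurrent regions outside clusters. The authors' score of a summit is a −log10 value of its significance. It was turned into a percentile within each list, where 100 is the highest score. The mean percentile of a single region, given below, is taken over only the libraries with a summit there. Such means of regions found in different libraries thus rest on different lists. Compared among regions with the same number of libraries, the mean percentile of cluster regions exceeded that of the others by 0.448 ± 2.07 points (SD, n = 6 libraries). The difference was −2.19 and −1.86 in day 12 replicates 1 and 2 and positive in the other 4 libraries, with 3.15 in day 15 replicate 2 as the highest. A two-sided exact sign-flip permutation test over the 6 libraries gave p = 0.594, where 0.03125 is the smallest p it can give. Any difference in rank between clustered and other recurrent sites was thus smaller than the spread between libraries.

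The libraries covered the clusters to very different degrees. A summit was present in 47.9%, 83.9% and 97.0% of the cluster regions in day 12 replicates 1, 2 and 3. The values for day 15 replicates 1, 2 and 3 were 97.0%, 86.8% and 65.2%. The 2 longest lists covered nearly every region, the shortest covered fewest, and the days overlapped. Over all recurrent regions the same libraries covered 51.3%, 83.0%, 96.7%, 98.0%, 81.7% and 63.6%. A summit of every library lay somewhere in 254 of the 316 clusters. Day 12 replicate 1 had no summit in 40 clusters and day 15 replicate 3 had none in 24, and 3 clusters lacked both.

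The days overlapped in how much they used the clusters as a whole. On day 12 a mean of 76.2 ± 25.4% of the cluster regions had a summit and on day 15 a mean of 83.0 ± 16.2% (SD, n = 3 each), a difference of 6.74 points. Clusters took up 4.29 ± 3.39% of a day 12 list and 4.51 ± 2.57% of a day 15 list. Both shares rest on the presence of summits, by which the regions were chosen, so they are given without a test. The mean score percentile of cluster regions was 63.5 ± 11.2 on day 12 and 68.1 ± 11.8 on day 15, a difference of 4.65 points that was smaller than the spread between libraries (two-sided exact permutation p = 0.7, adjusted p = 1 by Benjamini-Hochberg over the 3 measures computed). A test of 3 against 3 libraries cannot give a p below 0.1.

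Within the sets the values moved. The share of regions with a summit had a day 15 minus day 12 difference of 28.1 points in set A, 6.54 points in set B and 17.3 points on average. The score percentile gave differences of 9.86 and 12.1 points (exact permutation p = 0.111, the smallest that the 9 arrangements within sets can give). Across all libraries this percentile rose with list length, from 51.5 in day 12 replicate 1 (shortest) to 81.6 in day 15 replicate 1 (longest). Recurrent regions outside clusters put the libraries in the same order. Within both sets every day 15 list was longer than every day 12 list, so this test cannot separate day from list length. The share of a list inside clusters turned negative, with −2.17 points in set A and −0.801 in set B. Between the sets this share was 6.71 ± 1.26% in A and 2.08 ± 0.658% in B (n = 3 each), and a shorter list had the larger share.

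**Figure D2:**
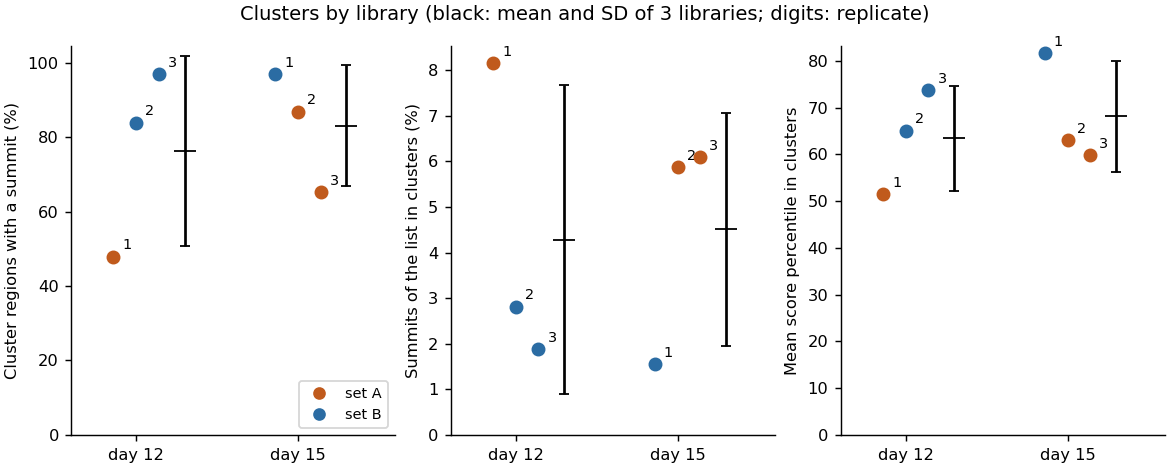
For each library, the percent of the 1117 cluster regions with a summit, the percent of its summits that lie in clusters, and its mean score percentile in clusters (vertical axes), by day (horizontal axis). Points are libraries with their replicate number, orange for set A and blue for set B, and black bars are the mean and SD of 3 libraries. The days overlap in all 3 panels, and the sets lie apart for list share and for score percentile.

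Most clusters overlapped a gene. Of the 316 clusters, 248 (78.5%) overlapped a protein-coding gene and 33 (10.4%) overlapped 3 or more. Pairs overlapped a gene in 70.9% and single regions in 57.9%, but they are also shorter, so that the 3 shares are set side by side only. Another 47 clusters lay within 50 kb of a gene, and 21 had no protein-coding gene within that distance. In all, 396 genes were overlapped. The single regions of clusters lay within 2 kb of either end of a gene in 34.5% (31.7 to 37.3%), inside a gene in 33.8% and between genes in 31.8%. Recurrent regions outside clusters gave 34.4%, 34.6% and 31.0%, while over all joined regions 20.3% lay at a gene end. In each class the clustered and the other recurrent regions thus lay within 1 percentage point of each other. Strand was not used, so a gene end can be the start or the end of transcription. In 28 clusters every region lay at a gene end, and in 52 every region lay between genes.

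Clusters were densest on a gene-rich chromosome. Chromosome 12 held 29 clusters, or 47.1 per 100 Mb, at 18.2 protein-coding genes per Mb, and 115 of its 604 recurrent regions were in clusters. Chromosome 7 also held 29 clusters, or 23.8 per 100 Mb. Chromosome 8 held 5 clusters, X held 4.77 per 100 Mb and chromosome 1 held 6.20. Of the 193 recurrent regions of X, however, 28 (14.5%) were in clusters, against 3.63% on chromosome 8 and 4.86% on chromosome 1. Some clusters lay side by side, with 45 of the 316 in 24 neighbouring pairs less than 100 kb apart, among them 2 clusters with IRF2 and 2 with P2RY2 as their gene.

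Gene lists were set beside a background in which 2.25% of 19484 protein-coding genes overlapped a cluster or were its nearest gene within 50 kb. Many AP-1 and immediate early genes are switched on within minutes of a stimulus, and they include the zipper proteins of the AP-1 dimer. Their list, like the others, was chosen with earlier results of these data known. Of its 34 matched members, 10 (29.4%) were in or next to clusters. They were FOS, FOSB, JUNB, JUND, IER2, IER5, ZFP36, ZFP36L1, BTG1 and PER1, and 9 of them were overlapped, with FOS the nearest gene to its cluster. This count depended on the libraries and on list length. Leaving out either of the 2 longest lists, day 12 replicate 3 or day 15 replicate 1, gave 3 genes against a background of 0.590% and 0.595%. Leaving out replicate 2 of either day gave 5 against 0.996% (day 12) and 0.903% (day 15). With equal lists, in which every library keeps only its 6556 highest-scoring summits, it was 0 against a background of 0.0924%.

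**Figure D3:**
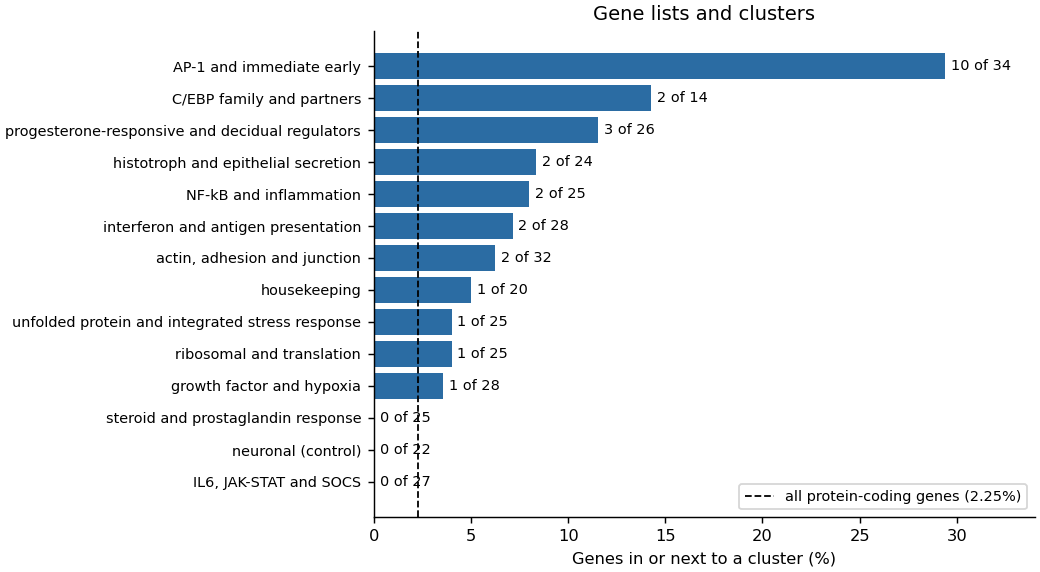
Percent of the matched genes of each list that overlap a cluster or are its nearest gene within 50 kb (horizontal axis), by gene list (vertical axis), with counts beside the bars. The dashed line is the 2.25% of all protein-coding genes. AP-1 and immediate early genes reach 10 of 34, and 3 lists are at 0.

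FOSB, a FOS family subunit of AP-1, lay in a cluster of 4 regions shared with RTN2, a reticulon of the endoplasmic reticulum (chromosome 6, 51837470 to 51856216). Every region had a summit in all 6 libraries, one of only 6 clusters for which this was so. The region 690 bp from an end of FOSB had a mean score percentile of 88.5, and the region inside the gene had 69.5. FOS had 4 regions in the 12.5 kb beginning 10.3 kb from the gene (chromosome 7, 98462243 to 98474696), with summits in 2, 2 and 4 of them in the day 12 libraries and in 4, 4 and 3 in the day 15 libraries. A single region, 14852 bp from FOS, was found in all 6 libraries, at a mean percentile of 94.7, and the farthest had 16.6.

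The JUN genes had smaller clusters of 3 regions each. At JUNB (chromosome 2, 66205054 to 66217262) the region 122 bp from an end of JUNB was found in all 6 libraries, and so was another 2173 bp from it. At JUND (chromosome 2, 59523878 to 59532445) 2 regions lay 70 and 401 bp from an end of the gene, and their mean percentiles were 92.0 and 79.4. These means rest on different libraries. The first region had summits in replicates 1 and 2 of day 12 and 2 and 3 of day 15. The second had them in all of day 12 and in day 15 replicate 1. Summits were present in 3, 3 and 2 regions on day 12 and in 2 regions of each day 15 library. IER2, an immediate early nuclear protein, had 3 regions, all at gene ends, and the first had a mean percentile of 96.1 with a summit in all 6 libraries. IER5 had 4 regions as well, with 1, 2 and 4 of them present on day 12 and 4 in each library of day 15. BTG1, a regulator of cell growth, had a region 107 bp from its end with a mean percentile of 96.3.

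ZFP36 encodes an RNA-binding protein that marks cytokine mRNAs for decay. Its cluster held 8 regions across 7 genes from PAF1 to SUPT5H (chromosome 6, 48051743 to 48095065), and each region lay within 2 kb of a gene end. Summits were present in 4, 5 and 6 regions on day 12 and in 8, 7 and 7 on day 15, so that the days did not overlap. With equal lists the values were 4, 1 and 2 against 2, 7 and 6, which do overlap. The highest-scoring region, with a mean percentile of 99.2, lay 275 bp from an end of PLEKHG2. Its relative ZFP36L1 had 6 regions in 36.4 kb (chromosome 7, 92491145 to 92527517), present in 2, 6 and 6 cases on day 12 and in 5, 4 and 4 on day 15. Of these only the region farthest from ZFP36L1, 22615 bp from an end of ACTN1, had a summit in all 6 libraries.

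PER1, a repressor of the circadian clock that is also induced acutely, shared a cluster with VAMP2, TMEM107 and BORCS6 (chromosome 12, 53360967 to 53406309). It had the most regions found in all 6 libraries of any cluster, 5 of 8. Summits lay in 6, 7 and 7 regions on day 12 and in 8, 8 and 7 on day 15. The region 3974 bp from an end of PER1 had a mean percentile of 97.8, and the last region, 443 bp from BORCS6, had 99.0. Of the regions between them 2 had only 26.5 and 27.5, so that high and low scores stood in the same cluster. NR1D1, another clock repressor, had 6 regions in 28.3 kb on the same chromosome (22237645 to 22265947), with 3, 4 and 6 present on day 12 and 5, 5 and 6 on day 15.

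**Figure D4:**
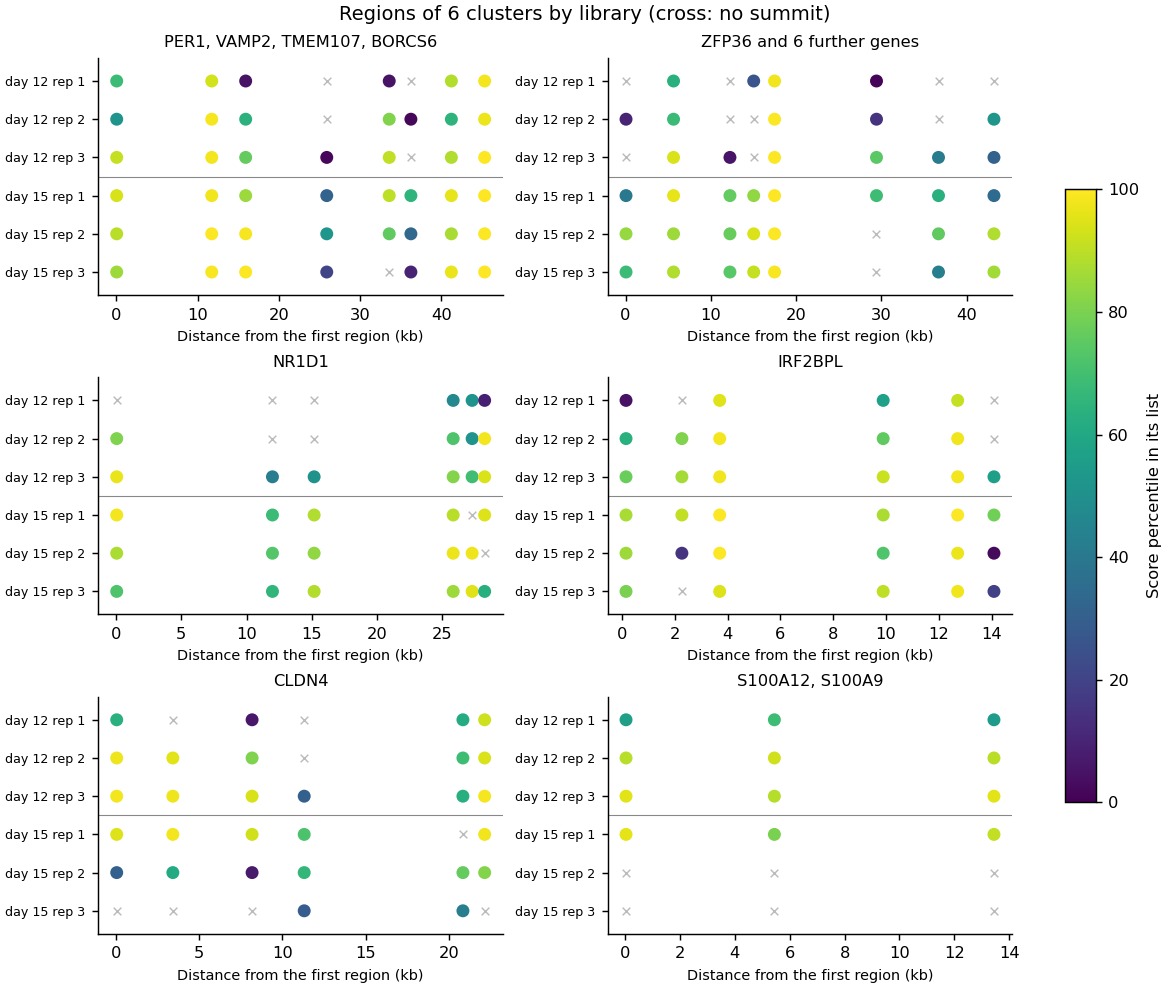
Regions of 6 clusters by distance from the first region in kb (horizontal axis) and library (vertical axis, day 12 above and day 15 below the line). Point colour is the score percentile in that library and a cross marks no summit. At PER1 5 of 8 regions have a summit in all 6 libraries, and at S100A12 and S100A9 none has a summit in day 15 replicates 2 and 3.

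The gene of C/EBP-β itself, CEBPB, was neither overlapped by nor the nearest gene of a cluster. Of its family and partners, 2 of 14 were, both of them zipper proteins that share a DNA motif. NFIL3, a repressor, had 4 regions in 9.47 kb (chromosome 14, 2598487 to 2607956). Its first 2 regions were found in all 6 libraries at mean percentiles of 96.9 and 96.6. The number present was 3, 4 and 4 on day 12 and 4, 3 and 2 on day 15. DBP, an activator, shared 3 regions with RPL18 and SPHK2 (chromosome 6, 53978570 to 53990043), of which 0, 1 and 3 were present on day 12 and 2, 3 and 3 on day 15.

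Cytokine, interferon and steroid lists differed in their counts. No gene of 27 in the IL6, JAK-STAT and SOCS list and none of 25 in the steroid and prostaglandin list was in or next to a cluster, and neither was any of 22 neuronal control genes. Against a background of 2.25%, lists of this size can hold no member without standing apart from other genes. Of NF-kB and inflammation genes 2 of 25 (8.0%) were. NFKBIA, the inhibitor that holds NF-kB in the cytoplasm, had 3 regions 16705 to 30965 bp away with mean percentiles of 87.8, 86.9 and 88.1. All 3 were present in each library of day 12, and 3, 1 and 1 of them in those of day 15. TNFRSF1A, the main receptor of tumour necrosis factor, had 3 regions, 2 of them at its end. Of interferon genes 2 of 28 (7.14%) were found. Both shares exceed the background and rest on 2 genes each. Every list with at least 1 member found also exceeded it, housekeeping genes among them at 5.0%. IRF2, a repressor of interferon-driven transcription, had 4 regions, with 3, 4 and 4 present on day 12 and 4, 4 and 2 on day 15. IFITM1, an antiviral membrane protein, shared 3 regions with IFITM3, all at gene ends and lacking in day 12 replicate 1.

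Genes known for the hormone-driven uterus or for secretion came next. Of progesterone-responsive and decidual regulators 3 of 26 were found. ZBTB16, a zinc finger repressor induced by steroid hormones, had 4 regions deep inside the gene, 93505 to 97310 bp from its ends, and summits in 1, 2 and 4 of them on day 12 and in all 4 in each library of day 15. BCL6, a repressor, had 3 regions, and the one 56 bp from its end was found in all 6 libraries at a mean percentile of 94.4. SOX17, a factor of uterine glands, had 4 regions, and none of them was found in all 6 libraries. EPAS1, the hypoxia-inducible factor HIF-2α, was 1 of 28 growth factor and hypoxia genes. It held 5 regions in 30.8 kb (chromosome 3, 94221036 to 94251833), with 2, 5 and 5 present on day 12 and 5, 3 and 2 on day 15. The region inside EPAS1 26699 bp from its end had the highest mean percentile of the regions named here, 99.8.

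Among actin, adhesion and junction genes 2 of 32 were found. CLDN4, a tight junction protein of epithelia, had 6 regions (chromosome 3, 11028986 to 11051166), present in 4, 5 and 6 cases on day 12 and in 5, 6 and 2 on day 15. S100A9 and its relative S100A12, calcium-binding proteins of myeloid cells and inflamed epithelia, were the 2 of 24 histotroph and secretion genes. They shared 3 regions (chromosome 4, 96225522 to 96239000), of which all 3 were present in each library of day 12 and in day 15 replicate 1, and 0 in day 15 replicates 2 and 3. Both of those belong to set A, as does day 12 replicate 1, which had all 3.

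Of the other lists, TRIB1 was 1 of 25 stress response genes and RPS2 1 of 25 ribosomal and translation genes, and 1 of 20 housekeeping genes was found. None of the 11 entries of a list of nuclear non-coding RNAs matched the gene table. TRIB1 encodes a pseudokinase that directs C/EBP proteins to degradation. Its 3 regions in 4.48 kb (chromosome 4, 14293389 to 14297872) were found in all 6 libraries with mean percentiles of 90.3, 91.1 and 97.4, and all 3 were also present in every library with equal lists. No other cluster had every region present in all 6 equal lists.

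The remaining clusters with every region in all 6 libraries had 3 regions each. Among them were those next to TLE3, a corepressor, next to HS1BP3, and at MNT, a repressor of the MYC network. The highest-scoring TLE3 region, 1896 bp from the gene, had a mean percentile of 99.1, and MNT had regions 169 and 357 bp from its ends at 86.0 and 97.1. IRF2BPL, a nuclear regulator, had 4 regions in all 6 libraries among its 6 (chromosome 7, 100123356 to 100137561), with 97.5 and 96.9 as the highest mean percentiles. HSPA6, a heat-inducible chaperone, ABCB10 with NUP133, and CLDN7 with its neighbours PHF23, GABARAP and ELP5 each had 3 such regions.

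The cluster with the most regions lay within a single gene. TEX14, which is known for intercellular bridges of germ cells, held all 11 regions of the widest cluster, 69.8 kb long (chromosome 12, 34899441 to 34969206). Summits were present in 3, 8 and 11 regions on day 12 and in 11, 8 and 8 on day 15. No region lay within 2 kb of a gene end, and only the last was found in all 6 libraries. Clusters could also be short and dense. EFNA1, a membrane-bound ligand of Eph receptors, had 6 regions in 11.5 kb, of which 2, 4 and 5 were present on day 12 and 5, 6 and 6 on day 15. Other dense clusters lay across FKBP15 and the copper transporter SLC31A1 and next to P2RY2, FMOD and ZCCHC6. Clusters of 4 regions on chromosomes 1 and 6 had no protein-coding gene nearer than 83.8 and 56.5 kb.

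A few clusters separated the days in part of the counts. As deposited, all 3 libraries of day 15 had more regions with a summit than any of day 12 in 7 of 316 clusters (2.22%), and the reverse held in 0 (0.0%). With equal lists the counts were 8 (2.53%) and 10 (3.16%), and 1 cluster appeared in both countings. Full separation of 3 against 3 libraries in a single cluster cannot give a p below 0.1 in a two-sided exact permutation test. The same counts were not made for pairs or single recurrent regions, so they cannot be read as particular to clusters or to the clusters named below. Between sets, set B lay above set A in 53 clusters (16.8%) and below it in 0. Single libraries moved these counts, taken over the same 316 clusters with that library left out of the comparison. The count of 7 rose to 55 when day 12 replicate 3 was left out and to 11 when day 15 replicate 3 was. The count of 0 rose to 23 when day 15 replicate 1 was left out and to 6 when day 12 replicate 1 was.

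The cluster in both countings lay on chromosome 14 (51710265 to 51730857), with 9 regions over LOC110256816 to LOC110256818. Of its regions 0, 4 and 8 were present on day 12 and 9 in each library of day 15, and with equal lists 0, 0 and 0 against 6, 8 and 9. The other 6 as deposited were those at EEF1G, NFIC, ZFP36, UBA7 with its neighbours, LEKR1 and near GPR173. Near GPR173, on X, 0, 3 and 3 regions were present on day 12 and 5 in each library of day 15, but with equal lists day 15 replicate 1 had 0, like day 12, and replicates 2 and 3 had 5 each. With equal lists near TARBP1, 1, 0 and 0 regions stood against 2, 4 and 2.

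In the opposite direction, with equal lists the S100A12 and S100A9 cluster and one near B3GNT2 each had 3, 3 and 3 regions on day 12 against 2, 0 and 0 on day 15. SNTB1, a syntrophin, had 3, 3 and 3 against 1, 0 and 0, and the cluster near NOCT had 2, 3 and 3 against 1, 0 and 0. Day 15 replicates 2 and 3, whose names share a sample code, held 0 regions in all 4. At UBB, a polyubiquitin gene, 3, 3 and 3 stood against 2, 1 and 1. For single regions neither day pattern was more frequent in clusters than outside them, and that of day 12 was less frequent. Of the cluster regions 8.95% had all 3 libraries of day 12 and 1 of day 15. This compares with 12.3% of the recurrent regions outside clusters and 12.0% of all recurrent regions. The reverse held for 14.3% of the cluster regions, against 15.0% outside clusters and 14.9% of all. The pattern of set B against set A was more frequent than both, with all 3 libraries of set B and 1 of set A in 30.5% of the cluster regions, against 31.9% of all recurrent regions, while the opposite held for 13 cluster regions (1.16%) against 1.53%.

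Genes of transfer RNAs, the adaptors of translation, were the class most often inside clusters among 5 classes of genes. This class was looked at after its values were seen. Of 448 tRNA genes 66 (14.7%) were in clusters, against 2.03% of protein-coding and 1.33% of long non-coding RNA genes, and they fell in 20 clusters. A tRNA gene lay within 1 kb of 3.85% of the cluster regions and of 0.673% of the other recurrent regions. They lie in groups themselves, so a few clusters hold many of them. Regions of the 20 clusters had a summit in 62.4%, 84.7% and 94.1% of cases on day 12 and in 95.3%, 87.1% and 84.7% on day 15. In the other clusters the 2 shortest lists were lower, with 46.7% in day 12 replicate 1 and 63.6% in day 15 replicate 3.

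The group of neighbouring clusters with the most tRNA genes lay beside histone genes on chromosome 7, where 6 clusters followed each other within 531 kb (20725577 to 21256665). They held 27 regions, 7 of them found in all 6 libraries, and 22 tRNA genes, with ABT1 and HMGN4 among the protein-coding genes there. One cluster of 7 regions had 2, 7 and 7 of them present on day 12 and 7, 5 and 5 on day 15. At ABT1 9 tRNA genes lay in a cluster of 5 regions, and the PER1 cluster held 6. The HSPA6 cluster held 4. Cytosolic ribosomal protein genes, a family also examined after its values were seen, were overlapped for 8 of 82 (9.76%), among them RPS16 in the ZFP36 cluster and RPL18 in the DBP cluster, while SLC carriers gave 6 of 316.

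Only a small core was left when every library contributed equally. The 6556 highest-scoring summits of each list gave 21 clusters with 69 regions. Each of the 21 overlapped one of the 316, which follows almost of necessity, since these summits are a part of the same lists. Genes overlapped by these clusters included ARSG, SP2, TMEM107 with BORCS6, NFIL3, IRF2, TRIB1, HSPA6, GINS3 and CLGN. The others lay nearest to HELZ, IGSF10, TOMM20, CLDN4, LOC100627836, NFKBIA, IRF2BPL, NENF and, with 2 clusters, PLS3. Of their regions 20.3% lay at a gene end, against 34.5% for the 316, and 16 tRNA genes lay in them.

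The spacing of regions was examined in the larger clusters. Over the 35 clusters with 5 or more regions, the coefficient of variation of the step from the middle of 1 region to the next ran from 18.4% to 98.9% with a median of 51.6%. The most even steps were those of a chromosome 4 cluster over 8 genes named only by LOC numbers (18.4%), at UBB (19.6%) and at EPAS1 (20.8%). Clusters on chromosome 14 and X showed repeated steps among part of their regions, which were picked out after their values were seen. Over all their steps they were not among the most even, with 40.9% on chromosome 14 and 40.1% and 39.8% on X. In the chromosome 14 cluster at LOC110256816 to LOC110256818 the outer steps were 3.37 and 4.88 kb, and the 6 inner steps ran from 1.95 to 2.11 kb. This is also the cluster with all 9 regions in each library of day 15.

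On X, 2 neighbouring clusters of 5 and 8 regions lay 45.9 kb apart between PLS3, an actin bundler, and AGTR2, an angiotensin receptor. Neither had a protein-coding gene within 50 kb. The first (95026770 to 95046906) had 0, 5 and 5 regions with a summit on day 12 and 5, 5 and 4 on day 15. The second (95092791 to 95126223) had 0, 8 and 8 on day 12 and 8 in each library of day 15. Day 12 replicate 1 thus lacked both, while the other 5 libraries held nearly all of their regions. Regions 1, 2, 3, 5, 7 and 8 of the second cluster, picked out for their spacing, followed each other at 6.58 to 6.73 kb. Regions 4 and 6 lay 6.58 kb apart, which is 1 step only and cannot show a period. In the human genome the interval between these genes holds the macrosatellite DXZ4, a long tandem repeat. Whether the pig sequence is repeated there was not tested, since no genome was given.

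**Figure D5:**
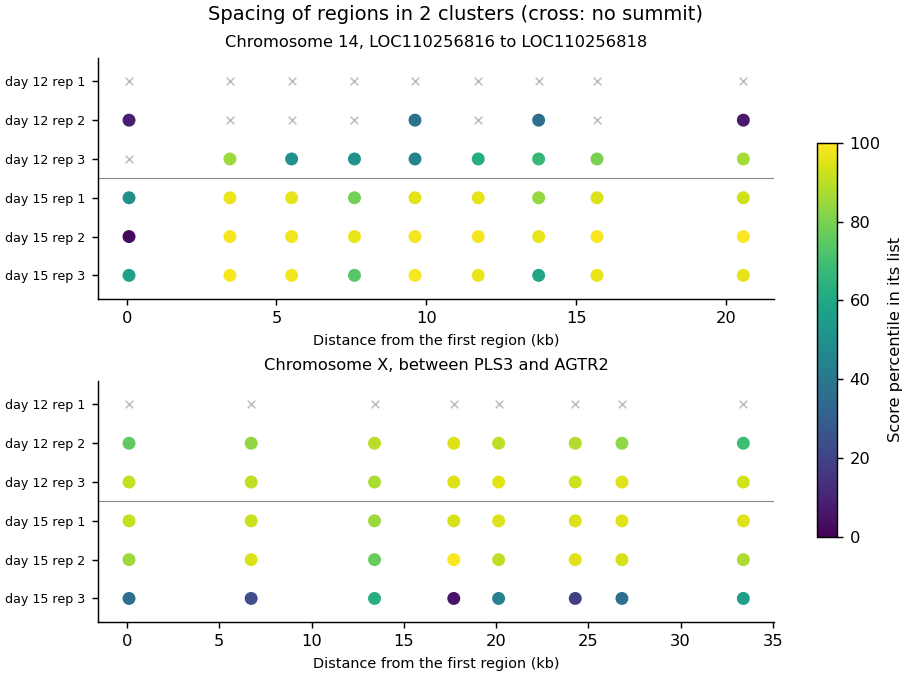
Regions of the clusters at LOC110256816 to LOC110256818 on chromosome 14 and between PLS3 and AGTR2 on X, by distance from the first region in kb (horizontal axis) and library (vertical axis, day 12 above and day 15 below the line). Colour is the score percentile and a cross marks no summit. Inner regions on chromosome 14 stand 1.95 to 2.11 kb apart, and day 12 replicate 1 has no summit in either cluster.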

How the data were processed

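C/EBP-β ChIP-seq of pig endometrium was analysed from the 6 deposited summit lists, 3 of each day. The submitters' processing notes name MACS2 2.1.2, Bowtie2 2.3.5.1 and SAMtools 1.9, and the build susScr11. The calling threshold is not given in the sources used here, nor is the use of the input. The score the authors deposited with each 1-bp summit is on a −log10 scale, of either the p-value or the q-value. It was used only as a percentile within its list. Positions, the other deposited value, were counted from 1.

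Of 198341 summits 196102 lay on the chromosomes used. Genes were taken from the RefSeq annotation of Sscrofa11.1, the same assembly, which gives starts and ends without strand. No genome was given, so no sequence is printed and the planned motif search was not run. The 15 gene lists held 375 entries, 355 of which matched. The clusters, gene lists and tests were chosen with earlier results of these data known.

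Named clusters were those with the most regions (12), the most regions in all libraries (6), the highest density among those with 4 or more regions (5), the largest difference between days with equal lists (4 each way), the widest (3), those without a gene within 50 kb (4), and up to 3 of each gene list. Some of the genes this names are not reported here. Other clusters, including those counted as not overlapping between days, those of further list members and those with every region in all libraries, were named after their values were seen. Analyses used Python 3.11.15, pandas 2.3.3, NumPy 2.4.6 and SciPy 1.17.1 and were tested on simulated lists. Intervals are exact binomial and cover counting error only. Alternatives were other joining and stitching distances, library and region minimums, scores of at least 5, equal lists, all sequences, other gene-end distances, each library left out (4 of the other 5 then needed), the sets and a replicate block. Those for AP-1 genes, tRNA genes and days that do not overlap were added after seeing the data.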

Additional observations from a re-analysis of the deposited data

How the results depend on the processing

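Cluster numbers depended on most choices of the rule. There were 1830 clusters with 6995 regions (25.1% of recurrent regions) at 3 or more libraries, 73 with 243 (4.14%) at 5 or more, 90 with 298 (2.59%) at a stitching gap of 5 kb and 642 with 2432 (21.1%) at 25 kb. There were 105 with 484 (4.20%) at 4 or more regions, 35 with 204 (1.77%) at 5 or more, 126 with 430 (5.59%) at scores of at least 5 and 21 with 69 (2.09%) with equal lists. Joining within 100 bp gave 728 regions (7.34%) and within 500 bp 11.5%. Leaving out 1 library left 77 to 243 clusters, 256 to 851 regions and 4.22 to 8.64%, fewest without day 12 replicate 3 (77) and day 15 replicate 1 (78). A region then needed 4 of 5 libraries, a stricter rule.

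The share of cluster regions at a gene end was 26.9% at 3 or more libraries, 39.1% at 5 or more, 20.3% with equal lists, 26.3% with ends within 1 kb, 48.2% within 5 kb and 30.6 to 41.0% without 1 library. Clusters overlapping a gene made up 68.9% at a 5 kb gap, 73.3% at 4 or more regions, 52.4% with equal lists and 71.8 to 79.8% without 1 library.

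The day difference in the share of a list inside clusters reversed to −0.177 points when joining within 100 bp, −1.36 at 3 or more libraries, −0.0432 at 5 or more, −0.0458 with equal lists, −1.49 within sets (−2.17 in A, −0.801 in B) and ran from −0.799 to 1.95 without 1 library. The difference in regions with a summit reversed to −7.66 at 3 or more libraries and −4.35 with equal lists, with −1.72 to 17.6 without 1 library. The score difference ran from −0.0343 to 13.7 without 1 library. Clustered against other regions gave −0.0159 at a 25 kb gap and 0.393 to 1.905 without 1 library. No alternative to the comparisons of scores brought a p under 0.05, which for the days 3 against 3 libraries cannot reach. The causes were not tested.

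With the replicate block the differences were 0.222 points for list share, 6.74 for regions with a summit and 4.65 for score (score: p = 1, exact sign-flip permutation over 3 pairs). Deviations of same-numbered libraries correlated at 0.0632, −0.0521 and 0.130 over 98994 regions. Libraries with different numbers gave −0.149 to 0.105. Presence of a summit also depends on list length, so these values cannot decide whether same-numbered libraries are paired. The labels tie them by number only.

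Of 34 AP-1 genes, 16 were in or next to clusters when joining within 500 bp, against a background of 2.98% of protein-coding genes. There were 24 at 3 or more libraries (background 10.4%), 2 at 5 or more (0.565%) and 4 at a 5 kb gap (0.493%). Minimums of 4 and 5 regions gave 6 (0.893%) and 3 (0.359%). Scores of at least 5 gave 6 (0.898%), equal lists 0 (0.0924%) and leaving out 1 library 3 to 8 (0.590 to 1.77%). Of 448 tRNA genes, 32 lay in clusters at 5 or more libraries, 29 at a 5 kb gap and 107 at 25 kb. There were 42 at 4 or more regions, 29 at 5 or more, 35 at scores of at least 5, 16 with equal lists and 35 to 56 without 1 library. The number of clusters, given above, changed in the same settings. Without 1 library, 7 to 55 clusters had day 15 above day 12 and 0 to 23 the reverse, which equal lists gave as 10.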

Other observations

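Across the 19 chromosomes, clusters per 100 Mb and protein-coding genes per Mb had a Pearson correlation of 0.902 and a Spearman correlation of 0.844, and without chromosome 12 the Pearson correlation was 0.823. This is a description over chromosomes that share all 6 libraries, and no test was made.

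The highest-scoring region of a cluster was no more often at a gene end than its other regions. It lay within 2 kb of a gene end in 33.2% of the clusters, inside a gene in 35.8% and between genes in 31.0%, against 35.0%, 33.0% and 32.1% of the other cluster regions. Among zinc finger genes named ZNF, 7 of 238 (2.94%) were overlapped by a cluster, close to the 2.03% of all protein-coding genes, and of 22 claudin genes CLDN4 and CLDN7 were.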
